A study of Equus caballus with 11 samples.

Results

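The CpGs described here are those at which 4 horses differed from each other while heart and lung of each horse were alike. They were chosen from strand-combined CpGs on chromosomes 1 to 31 with 10 or more reads in all heart and lung libraries. For each horse the methylation level, the percent of reads with C, was averaged over heart and lung. A CpG was kept where these 4 animal means spanned 40 points or more, heart and lung of each horse differed by under 20 points, and the heart and lung tissue means differed by under 15 points. The rule kept 648 of 116927 CpGs (0.554%). They are called animal-split CpGs below. The rule used the heart and lung levels, so these are given as a description with no test, and liver, which it did not use, serves as the check.

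Levels come from RRBS (reduced representation bisulfite sequencing), in which the genome is cut at CCGG and the short fragments, rich in CpGs, are read. The labels give 4 heart libraries, 4 lung libraries and 3 liver libraries, each with a replicate number. Each library is bulk tissue of 1 horse, and equal numbers were taken to be the same horse. Values for all tissues exist for horses 1, 2 and 4, while for horse 3 only heart and lung were analysed here. The animals were healthy, young cold-blooded stallions, sampled in the left ventricle of the heart, the caudal lobe of the right lung and the right lobe of the liver. Each horse is 1 animal, so horse, genotype, farm and life history cannot be told apart. In bulk tissue a level between 0 and 100% is an average over DNA copies and cell types, which cannot be told apart either.

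CpG methylation is the addition of a methyl group to cytosine at CG dinucleotides, most of which are methylated in mammalian tissues. Bisulfite turns unmethylated cytosine into a base read as T, so a CpG lost to a T variant in the genome is also counted as unmethylated. Sequence variants near a CpG are known to go with the methylation of the chromosome copy that carries them, and such CpGs often behave alike in several tissues. Genotypes were not measured here, and no site was assigned to a gene or a sequence, because no annotation of EquCab3.0, the build of the files, was used here.

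The library labelled heart of horse 1 followed its number less closely than the other libraries did. This was examined at 2296 CpGs chosen from lung alone, where the 4 lung libraries spanned 40 points or more. At these sites heart of horses 2, 3 and 4 differed from lung of the same horse by medians of 9.10, 13.5 and 10.6 points, and from lung of the other horses by 18.1 points or more. Liver of horses 1, 2 and 4 lay 9.44, 10.6 and 10.8 points from lung of the same horse and 17.5 points or more from the rest. The library labelled heart of horse 1 lay 16.8 points from lung of horse 1, 15.8 points from lung of horse 2, 24.0 points from lung of horse 3 and 18.5 points from lung of horse 4. It thus lay farther from the lung of its own number than any other library did, while lung and liver of horse 1 were alike. At 1704 CpGs chosen from liver alone, it lay 15.8 points from liver of horse 1, 28.9 from horse 2 and 21.1 from horse 4, while lung of horse 1 lay 9.33 points from liver of horse 1 and heart and lung of horse 3 lay 17.0 and 16.1 points from it. Heart of horse 2 lay 16.5 points from liver of horse 2 there, and heart of horse 4 lay 12.6 points from liver of horse 4. Over all CpGs read in every library, its deviations from the tissue mean correlated at 0.0512 with lung and 0.0519 with liver of horse 1, above its values with the other horses (0.00431 at most) and below the same-horse values of the other libraries (0.155 to 0.251). Over all 68147 CpGs read in every library the same library lay 5.83 to 7.14 points from the lung libraries, as the other hearts did at 5.33 to 7.69 points. The reason was not tested.

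**Figure D1:**
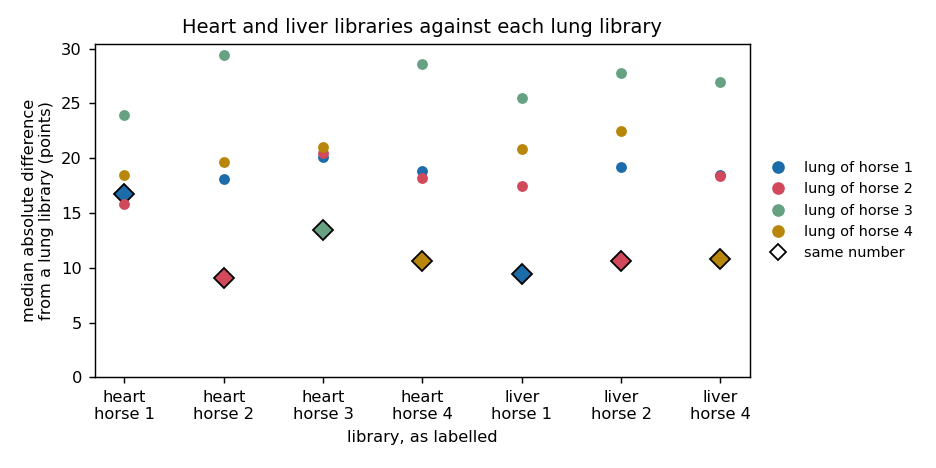
Median absolute difference in methylation (points) of each heart and liver library (horizontal axis, as labelled) from each of the 4 lung libraries, at 2296 CpGs where the lung libraries spanned 40 points or more. Colour gives the horse of the lung library and outlined diamonds the same horse number, which is the lowest point for every library except the one labelled heart of horse 1, at 16.8 points.

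The heart-lung limit was failed most often in horse 1, the horse of this library. Of 1937 CpGs whose animal means spanned 40 points or more, 1288 failed the heart-lung limit in at least 1 horse and 1 more failed the tissue limit. Of the 1288, 880 failed in horse 1, against 222, 381 and 329 in horses 2, 3 and 4. The limit was missed in horse 1 alone at 539 of them (41.8%). The library labelled heart of horse 1 was then left out, with horse 1 taken from lung alone and the limits applied to horses 2 to 4. This looser rule kept 1459 of 117564 CpGs (1.24%), and 631 of the 648 animal-split CpGs were among them. Horse 1 had no heart-lung limit to pass there, so a larger class follows in part from the rule. No other heart was left out in this way. The main results on liver and on the kinds of split are therefore given with and without this library.

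Just inside the rule, the lowest span was 40.12 points and the largest heart-lung difference 19.93 points, and 68 members spanned 40 to 42 points. Just outside, the highest span was 39.94 points, and 78 CpGs that met the other limits spanned 38 to 40 points. The largest tissue difference inside was 13.99 points. The median span was 50.7 points, against 9.52 points over all 116927 CpGs. Of the members, 308 spanned 40 to 50 points, 184 from 50 to 60, 84 from 60 to 80 and 72 spanned 80 or more. Heart and lung of a horse differed by a median of 5.91 points at the members and 6.76 points at all CpGs. The median depth was 28 reads per library at the members and 27 reads at all CpGs.

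The animal means of these CpGs gathered at low, middle and high levels. Of 2592 animal means, 12.7% were at or below 20%, 23.4% were between 40 and 60% and 39.0% were at or above 80%. Over all CpGs these shares were 13.0%, 8.91% and 53.3%. The middle level thus held a larger share of the members' means than of all means, with valleys on both sides of it in the plot of levels. This share was not particular to the members. It was 25.1% at the CpGs with the span but without the likeness of heart and lung. The liver libraries, which the rule did not use, gave 11.7%, 22.5% and 38.1% at the 352 members with 10 or more reads in all 11 libraries, against 14.1%, 9.15% and 54.2% over all CpGs. Their middle share was 23.7% at the CpGs with the span but without the likeness. All 4 animal means fell into these 3 levels at 280 of 648 members (43.2%), against 19.6% of the CpGs with the span but without the likeness of heart and lung. At the other members at least 1 horse lay between the levels, and since the rule used these means they are no test of a genotype-like pattern. Low, middle and high horses occurred together at 32 members, low and high without middle at 46, middle and high without low at 276, and low and middle without high at 137. Without the library labelled heart of horse 1 the shares of low, middle and high means were 13.4%, 23.5% and 36.0%.

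**Figure D2:**
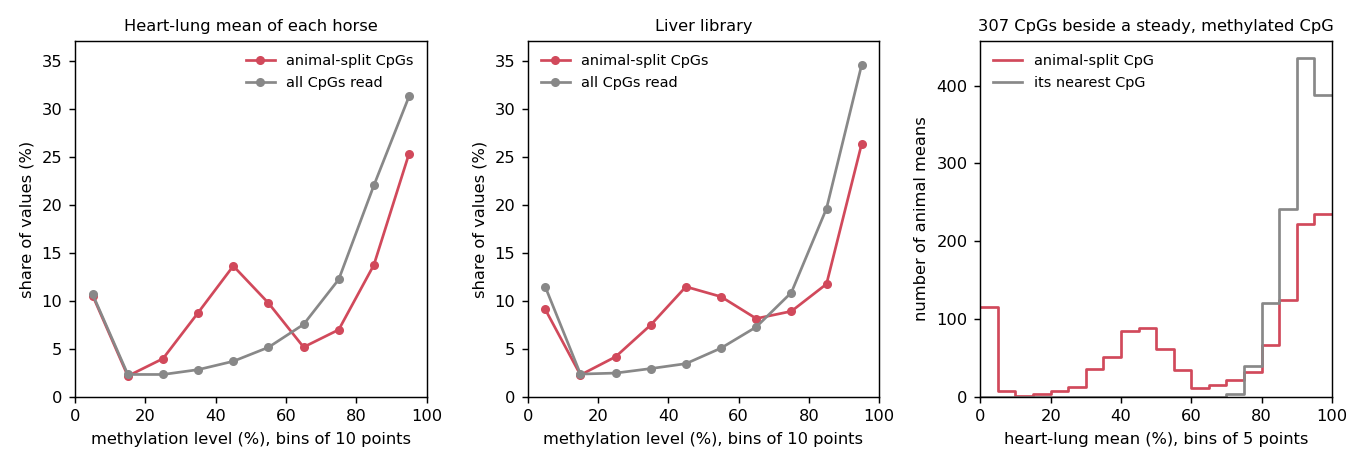
Share of methylation levels (%) in bins of 10 points for animal-split CpGs (red) and all CpGs read (grey), as heart-lung means (left) and in the liver libraries (centre), and (right) number of animal means in bins of 5 points at 307 animal-split CpGs and at their nearest CpG. The animal-split CpGs peak in the lowest bin, between 40 and 50% and in the highest bin of each panel, while the nearest CpGs in the right panel sit above 70%.

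Most often 1 horse was set apart downward. When each CpG was split at the largest gap between its 4 animal means, 432 members (66.7%) had 1 low horse, 126 (19.4%) had a pair of horses on each side and 90 (13.9%) had 1 high horse. At the members with 1 low horse the median level was 37.6% in that horse and 86.3% in the others. The low horse was at the middle level at 190 of these members (44.0%) and at or below 20% at 125 (28.9%). At the members with 1 high horse the median level was 71.6% in that horse and 19.0% in the others.

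The horses shared unequally in these splits. The low horse was horse 2 at 160 members, horse 3 at 139, horse 4 at 104 and horse 1 at 29. The high horse was horse 4 at 31 members, horses 2 and 3 at 26 each and horse 1 at 7. Horse 1 thus stood alone at 36 members (5.56%) and horse 2 at 186 (28.7%). With the library labelled heart of horse 1 left out, horse 1 stood alone at 306 of 1459 CpGs (21.0%), beside 270 for horse 2, 323 for horse 3 and 240 for horse 4. Horse 1 was then taken from lung alone and, unlike the other horses, had no heart-lung limit to pass. The shares of horse 1 with and without that library thus come from unlike limits, and the reason for the shortfall was not tested. The share of CpGs with 1 low horse was then 59.1%, and with 1 high horse 19.0%.

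Read depth differed little between the sides of a split. Relative to the library's own median, the low side had 0.837 to 1.09 times the depth of the high side over the 14 kinds of split. The lowest ratio belonged to the 160 members where horse 2 was low. By level, the median relative depth was 1.03 at low, 1.11 at middle and 0.987 at high animal means.

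Liver was set beside the heart-lung mean of each horse. At the 352 members, liver of horse 1 differed from the heart-lung mean of horse 1 by a median of 5.80 points and from horses 2, 3 and 4 by 21.5, 21.9 and 18.9 points. Liver of horse 2 lay 6.63 points from its own horse and 21.8, 35.1 and 36.8 points from horses 1, 3 and 4. Liver of horse 4 lay 5.30 points from its own horse and 17.4, 36.5 and 32.5 points from horses 1, 2 and 3. Over all 68147 CpGs a liver lay about as far from its own horse (5.17, 6.74 and 5.86 points) as from the others (5.14 to 7.50 points). Without the library labelled heart of horse 1, livers of horses 1, 2 and 4 lay 5.81, 6.47 and 5.65 points from their own horse at 809 CpGs.

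All 3 livers lay within 20 points of their own horse at 267 of 352 members (75.9%, 95% Wilson interval 71.1 to 80.03, counting error only). The share over all CpGs was 75.6%, so the livers were no nearer to their own horse than elsewhere. The distance to the other horses is fixed in part by the rule, which asks for means 40 points apart. Each liver was nearest to its own horse at 79 members (22.4%), against 2.01% of all CpGs. At the CpGs with the span but without the likeness of heart and lung, all 3 livers lay within 20 points at 48.0% of 696 sites. Liver of horse 1 lay 15.4 points from its own mean there, against 7.30 and 5.87 points in horses 2 and 4. Liver of horse 2 had the lowest read total and lay outside the 20 points most often, and without it the share at the members was 87.2%.

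**Figure D3:**
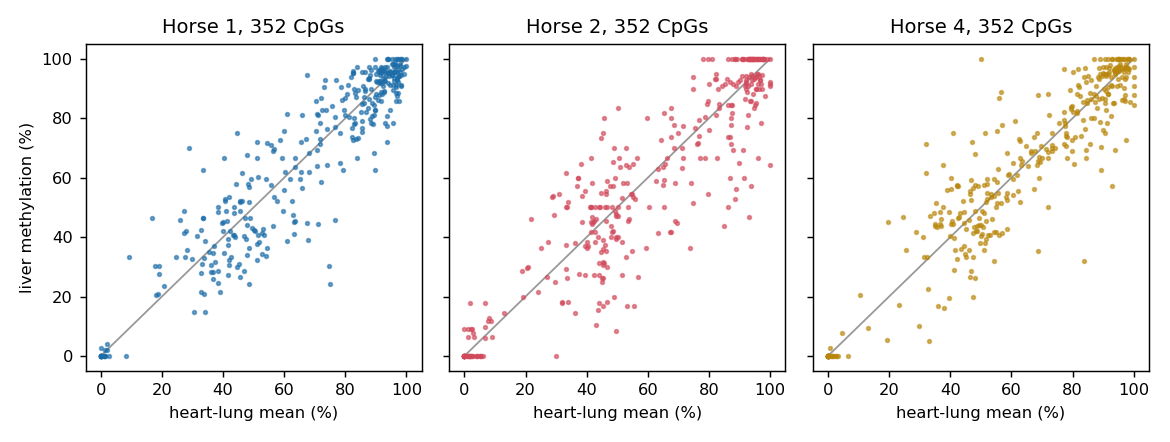
Methylation in liver (vertical axis, %) against the heart-lung mean of the same horse (horizontal axis, %) at 352 animal-split CpGs in horses 1, 2 and 4. Each point is a CpG and the line marks equal levels; the points follow the line in each horse, with median distances of 5.80, 6.63 and 5.30 points.

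The levels of the members were also followed by class. These shares were not taken over all CpGs, so they are not read as particular to the members. Over all CpGs 14.1% of liver values were low, 9.15% middle and 54.2% high. Where the heart-lung mean was at or below 20%, the liver of that horse had a median of 0% and stayed in the low class at 100 of 110 values (90.9%). From the high class the liver median was 92.9%, and 358 of 417 values (85.9%) stayed. From the middle class it was 46.4%, and 151 of 268 values (56.3%) stayed, with 10% of the values below 30.5% and 10% above 66.7%. Without the library labelled heart of horse 1, 91.1% of low, 82.9% of high and 55.9% of middle values stayed.

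The direction of the split could be checked in liver at 247 of the 648 members, those with reads in all 11 libraries and a split that separated horses 1, 2 and 4. The liver libraries of the high side exceeded those of the low side at 242 (97.98%), with a median difference of 44.2 points. By the same measure, the heart-lung means of these horses differed by a median of 45.7 points. At the CpGs with the span but without the likeness of heart and lung, the direction held at 449 of 492 (91.3%), with a median liver difference of 38.7 points. Most CpGs without the likeness failed the limit in horse 1 (above), so these shares also differ through that horse. The direction was not counted over all CpGs. At the members the liver difference was 20 points or more at 226, and at none was it 20 points or more the other way. At the 105 members that set horse 3 alone apart, for which no liver was analysed here, the 3 livers spanned a median of 15.3 points and 10 spanned 40 points or more. At the 247 the livers spanned a median of 48.8 points and the heart-lung means of these horses 48.7 points. The livers spanned 40 points or more at 183. Livers spanned 40 points or more at 54.8% of the 352 members and at 2.50% of all CpGs. Without the library labelled heart of horse 1, 554 of 585 such CpGs (94.7%) kept the direction.

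At 5 members, chosen after their values were seen, liver ran against the split. The clearest was chr7:86665480, where heart read 74.4%, 78.6%, 81.5% and 41.7% in horses 1 to 4, lung 75.0%, 69.0%, 73.1% and 29.2%, and liver 30.4%, 36.4% and 51.6% in horses 1, 2 and 4. Horse 4 was the lowest in heart and lung and the highest in liver, with 11 to 46 reads per liver library. At chr5:14852964 horse 1 was the lowest in heart (36.6%) and lung (21.1%) and the highest in liver, with 70.0% against 54.5% and 50%. The others were chr5:59742369, chr8:57682127 and chr26:15180850.

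The liver level was then tested against the level of the same horse at each CpG. A logistic regression of liver reads on the heart-lung mean, with a moderated quasi-likelihood F test, was fitted at 19469 CpGs that had reads in all 11 libraries and a span of 10 points or more over horses 1, 2 and 4. It called 179 with a positive slope at a Benjamini-Hochberg adjusted p below 0.05 (0.919%). Of 298 members fitted, 53 were called (17.8%), and of 661 CpGs with the span but without the likeness, 85 were called (12.9%). The slope was positive at 288 members (96.6%), at 88.7% of the CpGs with the span but without the likeness and at 57.2% of all CpGs fitted, and the unadjusted p was below 0.05 at 222 members (74.5%), at 56.3% and at 8.25%. The rule asks for a wide span of the heart-lung means, the predictor of this fit, while entry to the fit needed only 10 points. A wider predictor makes a slope easier to call. The members' higher shares than at all CpGs fitted thus follow in part from the rule, with or without the library labelled heart of horse 1. The CpGs without the likeness met the same span limit, but most failed the heart-lung limit in horse 1 (above). With 3 livers the fit left 1 residual degree of freedom and the calls hung on the setting. With the heart-lung mean on the logit scale, or a minimum span of 20 points, no CpG was called at all. Without the library labelled heart of horse 1, 42 of 690 members of the class then formed were called (6.09%), against 54 of 26633 CpGs (0.203%).

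The members were also compared between liver and the other tissues. Lung against liver, tested by the same kind of regression on tissue, called 3.82% of 73050 CpGs at an adjusted p below 0.01 and 25 points, and 0 of 352 members. At an unadjusted p below 0.05 there were 27 members (7.67%) against 19.4% of all CpGs, and edgeR also called 0. Heart against liver called 5.84% of 77277 CpGs and 1 of 352 members, chr7:86665480 (above), with heart 34.9 points above liver (quasi-likelihood F test, Benjamini-Hochberg adjusted p = 0.00899). No member was called with horse as a block, with edgeR, without heart of horse 3 or without liver of horse 1, and 2 were called without the library labelled heart of horse 1. The rule asks for animals that differ, which widens the spread inside each tissue, so few calls follow from the choice of members and nothing is read from them. The median absolute difference between tissues was 7.19 and 9.17 points at the members and 4.19 and 4.70 points at all CpGs. These set all lungs or hearts, horse 3 included, against the 3 livers, so horses that differ also move them. Over the horses with a liver alone, liver and heart-lung means differed by a median of 4.13 points at the members and 4.27 points at all CpGs. The means of the 3 livers and of the same horses' heart and lung differed by 25 points or more at 3 members, chr6:69933774, chr7:4762340 and chr18:45796665, each lower in liver.

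Most members stood alone. Of 648, 517 were more than 200 bp from any other member and 131 lay in 29 clusters of 2 or more. Neighbouring members up to 200 bp apart had the same split in 84 of 102 pairs (82.4%). Many of these pairs come from 1 stretch, since the largest cluster held 57 of the 131 members. From more than 200 bp to 1 Mb apart the share was 30 of 166 (18.1%), and beyond 1 Mb it was 53 of 349 (15.2%). The run with the most members of 1 split had 25 members along 203123 bp of chromosome 1, with horse 3 low. Next came 17 members along 86 bp of the largest cluster, with horse 2 low. A run of 10 members along 14176 bp of chromosome 5 had horse 3 low. Chromosome 1 held 110 members of 9309 CpGs (1.18%), and 53 without the largest cluster (0.569%). The other chromosomes ranged from 0.250% on chromosome 29 to 0.905% on chromosome 30. Of CpGs with 15 or more listed CpGs within 100 bp, 1.94% were members, and 0.622% without the largest cluster, against 0.411 to 0.641% at lower densities.

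The nearest other CpG was often not split. Within 50 bp and on the same strand, 599 members had another CpG with reads in all 8 libraries, at a median distance of 11 bp. This neighbour was steady, with a span below 15 points, at 358 (59.8%), and it was itself a member at 71. Such a neighbour existed for 92.4% of the members and 72.7% of all CpGs. Over all CpGs with such a neighbour, 75.3% of the neighbours were steady, so those of the members were less often steady. At 307 members the steady neighbour was at 80% or more, with a median of 92.5%. The member beside it had a median of 94.4% in its highest horse and 39.5% in its lowest. Of the 1228 animal means of these members, 10.3% were low, 21.8% middle and 52.8% high. In liver, where both CpGs of a pair had reads, 195 members with a steady neighbour spanned a median of 44.2 points and their neighbours 9.89 points. The neighbours were chosen as steady in heart and lung, and they were steadier than the members in liver too. Both strands were read in all 8 libraries at 54 members (8.33%), against 5.61% of all CpGs. At 49 of the 54 the animal means spanned 30 points or more on each strand. The largest cluster alone held 37 CpGs read on both strands. Lone and clustered members were not counted apart here, so little is known of the strands at lone members. Forward and reverse strands differed by a median of 7.94 points per animal mean, against 5.19 points over all CpGs read on both strands.

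The largest cluster lay on chromosome 1, at chr1:81070441-81071608, and held 57 members among 104 CpGs that could have been chosen. Its mean over the 57 members, or over 26 of them in liver of horse 2, was 36.3%, 7.82%, 37.05% and 59.8% in heart of horses 1 to 4, 40.4%, 8.96%, 42.1% and 64.2% in lung, and 37.7%, 11.4% and 56.2% in liver of horses 1, 2 and 4. Horse 2 was the lowest and horse 4 the highest at all 57 members, with horses 1 and 3 between them. Over the 104 CpGs horse 2 was the lowest at 102, and horse 4 was the highest at 102. At the 47 CpGs that were not members the means were 41.2%, 20.9%, 39.1% and 58.5%, and 34 of them spanned 30 points or more. At the 26 members with 10 or more reads in every liver, horse 2 was the lowest and horse 4 the highest in liver at all 26. Depth at the members ran from 10 to 324 reads in heart and lung. Here neighbouring CpGs moved together along 1168 bp, unlike the lone CpGs above.

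**Figure D4:**
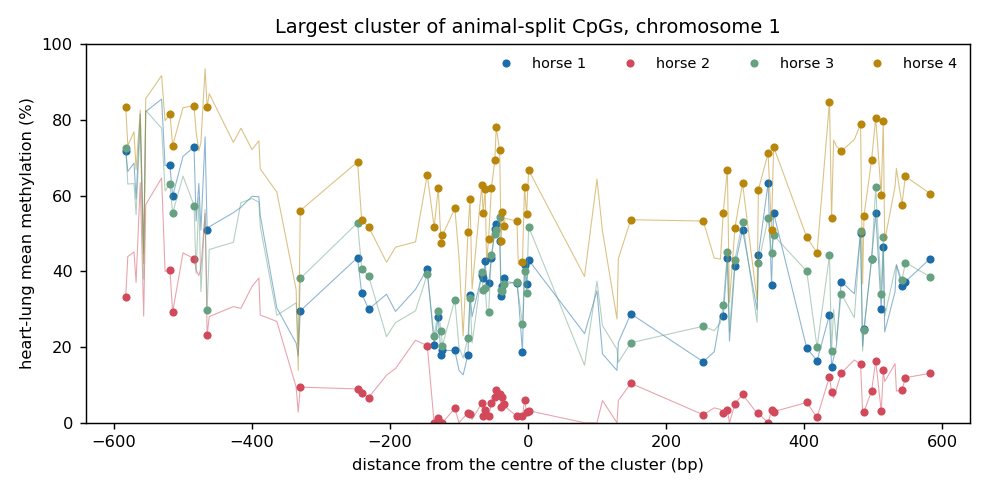
Heart-lung mean methylation (vertical axis, %) of the 4 horses along the largest cluster on chromosome 1 (horizontal axis, bp from its centre). Points are the 57 members and lines run through all 104 CpGs read; horse 2 lies below and horse 4 above the other horses at every member.

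Farther along chromosome 1 a stretch at chr1:159230885-159234562 held 3 named clusters in which horse 3 was low. At chr1:159230885-159231340, over 11 members, heart read 53.4%, 70.7%, 26.0% and 77.9% in horses 1 to 4, lung 65.1%, 65.5%, 23.5% and 77.2%, and liver 67.8%, 66.5% and 78.4% in horses 1, 2 and 4. Horse 3 lay below every other library, and at all 18 of the other CpGs in this cluster the animal means also spanned 30 points or more. At chr1:159234410-159234562, over 5 members, heart read 58.0%, 78.2%, 28.1% and 80.1%, lung 71.1%, 77.9%, 30.2% and 75.8%, and liver 70.4%, 68.0% and 80.9%. At chr1:159233984-159234103, over 4 members, heart read 45.3%, 66.5%, 25.7% and 73.4%, lung 62.9%, 69.1%, 25.6% and 68.5%, and liver 65.2%, 70.3% and 73.4%. In all 3 clusters liver and lung of horse 1 read alike, and the library labelled heart of horse 1 lay 11.7 to 17.6 points below that lung. Depth was high in places, up to 694 reads per library.

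The deepest members that set horse 3 alone apart came from the same stretch. At chr1:159234102 heart read 38.9%, 59.7%, 18.6% and 69.0%, lung 57.6%, 67.0%, 14.8% and 66.7%, and liver 57.8%, 62.8% and 69.0%. At chr1:159234092, 10 bp away, heart read 23.9%, 47.6%, 5.26% and 55.6%, lung 39.2%, 55.4%, 13.2% and 53.1%, and liver 40.4%, 53.2% and 54.0%. At chr1:159230885 heart read 40.5%, 65.5%, 22.9% and 71.5%, lung 57.5%, 65.95%, 13.9% and 66.1%, and liver 59.5%, 64.5% and 65.6%. Horse 3 was the lowest in heart and lung at each, and horses 2 and 4 lay above horse 1 in every tissue.

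Of the other named clusters, 1 did not carry over to liver. At chr10:61470092-61470119, over 4 members, heart read 48.7%, 30.96%, 10.1% and 2.08%, and lung 59.8%, 45.1%, 4.46% and 12.5%. Liver of horse 1 read 11.9% and liver of horse 4 11.4%, and no member had 10 reads in liver of horse 2. Horse 1 was thus high in the libraries labelled heart and lung and low in liver, at 22 to 24 liver reads. The span of this cluster was 46.97 points with both strands and 22.8 points on the deeper strand alone. At chr5:32584341-32584367, over 3 members, heart read 63.0%, 60.04%, 17.5% and 71.7%, lung 61.6%, 62.8%, 25% and 72.3%, and liver 60.9%, 62.2% and 64.4%. Horse 3 alone was low, and the livers of the other horses lay close together.

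The 8 named lone CpGs, the most deeply read on as many chromosomes, had 23 reads or more in every library, and their widest 95% Wilson interval in a library was 28.2 to 36.5 points. Horse 2 was apart at 3 of them. At chr17:78288834 heart read 91.3%, 41.9%, 92.2% and 97.3% in horses 1 to 4, lung 92.9%, 50.7%, 90.9% and 94.0%, and liver 92.0%, 55.6% and 98.4% in horses 1, 2 and 4. Horse 2 was at the middle level in every tissue and the other libraries were above 90%, while the nearest CpG, 15 bp away, averaged 89.2% with a span of 10.3 points. At chr6:80576859 heart read 85.5%, 1.52%, 80.6% and 84.8%, lung 90%, 0%, 78.6% and 83.8%, and liver 86.5%, 0% and 69.4%. Horse 2 was near 0 in all its tissues, beside a CpG 22 bp away that averaged 92.1% with a span of 1.89 points. At chr16:4091984 heart read 46.6%, 0%, 35.5% and 55.9%, lung 44.0%, 2.22%, 48.0% and 44.4%, and liver 31.03%, 0% and 40.4%. Again horse 2 was near 0, and here the other horses were at middle levels and the CpG 8 bp away averaged 67.6% with a span of 4.77 points.

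Horse 1 was low at a pair of these CpGs. At chr11:45550756 heart read 53.3%, 94.5%, 96.6% and 97.3%, lung 43.9%, 93.3%, 100% and 90.7%, and liver 51.7%, 100% and 95.8%. The library labelled heart of horse 1 read like lung and liver of horse 1 at this CpG, and the CpG 5 bp away averaged 94.5% with a span of 6.05 points. At chr3:37135100 heart read 22.3%, 73.7%, 61.9% and 55.2%, lung 11.3%, 85%, 54.0% and 37.8%, and liver 46.5%, 84.8% and 55.6%. The levels were graded, horse 1 was lowest in each tissue, and the span of 62.6 points fell to 38.6 points on the deeper strand alone.

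Horse 3 was apart at the other 3. At chr15:62830554 heart read 91.3%, 97.7%, 36.7% and 93.8%, lung 89.3%, 94.4%, 44.1% and 93.2%, and liver 92.3%, 66.7% and 85%. At chr22:3566615 heart read 72.9%, 54.4%, 33.3% and 90%, lung 84.7%, 55.0%, 26.9% and 91.5%, and liver 86.1%, 35.3% and 86.5%. Horse 3 was low at both, and on chromosome 15 liver of horse 2 read below its own heart and lung. On chromosome 22 horse 2 lay between horse 3 and the others and was also the lowest liver. At chr13:25947578 heart read 42.6%, 48.1%, 85.3% and 50%, lung 41.6%, 50.5%, 86.7% and 45.5%, and liver 53.6%, 48.8% and 43.5%. Horse 3 was high and the other horses, their livers included, were at the middle level.

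Low, middle and high horses together occurred at 32 members, and the 3 most deeply read are given in every library. At chr21:52837342 heart read 50%, 50.9%, 0% and 96.6%, lung 35.3%, 54.8%, 0% and 90.6%, and liver 33.3%, 33.3% and 96.2%. At chr13:30202988 heart read 87.8%, 46.4%, 41.5% and 0%, lung 89.4%, 43.6%, 39.3% and 0%, and liver 80.8%, 26.3% and 0%. At chr1:130024232 heart read 46.8%, 0%, 79.3% and 100%, lung 59.0%, 3.57%, 83.3% and 96.7%, and liver 34.2%, 0% and 100%. The livers kept the order of their horses except for a tie of horses 1 and 2 on chromosome 21, and the horses at the middle level read 26.3 to 34.2% in liver, below the middle range and below their heart and lung. The liver slope test called chr13:30202988 (quasi-likelihood F test, Benjamini-Hochberg adjusted p = 0.0136) and chr1:130024232 (0.0141) and not chr21:52837342 (0.0627). Smallest depth was 17 to 21 reads at these CpGs.

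**Figure D5:**
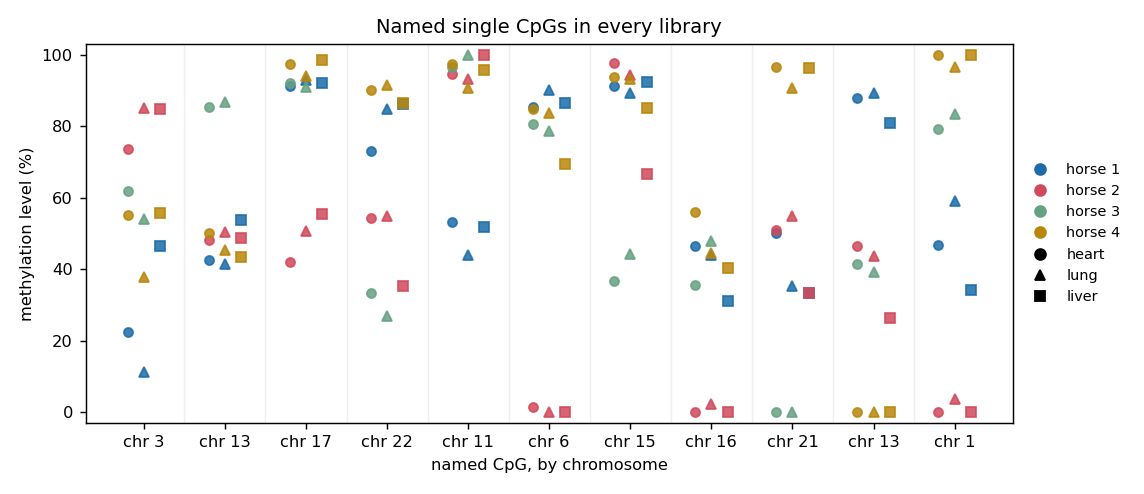
Methylation level (vertical axis, %) of the 8 named lone CpGs and the 3 with low, middle and high horses (horizontal axis, by chromosome) in each library. Colour gives the horse and shape the tissue. Heart and lung of a horse lie within 20 points by the rule. Liver lies close to them for horse 2 on chromosome 6, at 0 to 1.52% in all its tissues. It lies apart from them for horse 1 on chromosome 3 (46.5%) and horse 2 on chromosome 15 (66.7%), among others.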

How the data were processed

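Each deposited file holds, per cytosine of a CpG on each strand, a read count (coverage, in whole numbers). The deposited values next to it are the percent of reads showing C and the percent showing T. Reads were mapped by the authors to EquCab3.0, and only uniquely mapped reads entered the calls. The submitters' processing notes name FastQC and BSMAP, with versions not given in the sources used here. Listed positions had 5 reads or more. Autosomal reads per library ran from 3255257 (liver of horse 2) to 25109840 (liver of horse 1), and since reads may be PCR copies, intervals cover counting error only. Methylated reads were recovered as coverage times percent C, rounded, and were whole at 99.8% or more of positions. Groups and replicate numbers, used as horse numbers, came from the labels, and values of a horse are the unweighted mean of heart and lung.

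Liver slopes and tissue contrasts were fitted per CpG by logistic regression over all CpGs with 10 or more reads, with Pearson dispersion moderated by limma 3.58.1 (squeezeVar), kept at 1 or above, quasi-likelihood F tests and Benjamini-Hochberg adjustment. Each library is 1 animal and tissue, so the dispersion of a single CpG comes from the spread between these animals. Moderation combined it with a prior dispersion estimated over many CpGs. In the liver slope test the prior had 8.585 degrees of freedom, beside 1 residual degree of freedom per CpG. Its p-values thus rest mostly on the prior and only in small part on the spread between these animals. The tissue contrasts also used a prior, with 20.23 (lung) and 15.68 (heart) degrees of freedom. The prior left out CpGs below 2% or above 98%. edgeR 4.0.16 was an alternative for the tissue contrasts. The fits were tested on simulated data. Equal replicate numbers were taken to be the same horse and so to pair the samples, with the library labelled heart of horse 1 in doubt. As a check, deviations from the tissue mean were correlated across CpGs. Same-horse values were 0.190 to 0.223 for lung with liver (other horses 0.0301 at most), 0.0519 to 0.185 for heart with liver (0.0595) and 0.0512 to 0.251 for lung with heart (0.00431), with the lowest heart values from horse 1. Libraries of a tissue differed by more than sampling noise (chi-square per degree of freedom 1.43 to 2.15 over 15 pairs). Leaving out the largest cluster or the library labelled heart of horse 1 was chosen after the data were seen.

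The members, lists and tests were chosen with earlier results of these data known. Named were the 6 clusters (members up to 200 bp apart) with the most members, and the members with the highest smallest depth over 11 libraries at or below the 99th percentile of depth: 8 lone CpGs on different chromosomes, 3 that set horse 3 alone apart and 3 with low, middle and high horses. Scripts ran in Python 3.11.15 (numpy 2.4.6, scipy 1.17.1, pandas 2.3.3, matplotlib 3.10.9) and R 4.3.3.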

Additional observations from a re-analysis of the deposited data

Results flagged for a closer look

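Within heart or lung, 12 of 40 groups of 4 libraries, at 8 of the named regions, held a library whose gap to its nearest neighbour took more of the group's range than Dixon's 95% critical value for 4 samples, a gap that chance gives in about 1 in 20 groups. The members were chosen because a horse stands apart, so these flags follow from the choice. Horse 3 was the lowest lung library at chr1:159234410-159234562 (30.2%), chr1:159233984-159234103 (25.6%) and chr1:159230885 (13.9%). Horse 3 was the lowest in both tissues at chr15:62830554, with 36.7% in heart and 44.1% in lung. Horse 2 was the lowest in both tissues at chr17:78288834 (41.9% and 50.7%) and at chr6:80576859 (1.52% and 0%), and in lung at chr16:4091984 (2.22%). Horse 1 was the lowest at chr11:45550756, with 53.3% in the library labelled heart and 43.9% in lung.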

How the results depend on the processing

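The size of the class followed its thresholds. It was 161 with 20 reads, 1288 with a span of 30 points and 156 with 60 points, and 449 (without horse 2) to 1459 (without the library labelled heart of horse 1) when a library or a horse was left out, with 1056 without horse 1. The share of members with all 3 livers within 20 points of their own horse was 85.4% with 20 reads and ranged from 70.7% without the library labelled heart of horse 1 to 87.2% without liver of horse 2. The share that kept the direction of the split in liver was 100% with 20 reads and with a span of 60 points, and 94.7% without the library labelled heart of horse 1. The liver slope test was the least stable result. It called 25 members with 20 reads, 214 of 298 (1130 of all CpGs) when counting error alone was used, 1 (10 of all) at an adjusted p below 0.01, and 0 (0 of all) on the logit scale and with a minimum span of 20 points. Without the library labelled heart of horse 1 it called 42 members and 54 of all CpGs, against 53 and 179 with it, and the cause was not tested. It cannot be blocked or refitted with a liver left out, since each horse gives 1 liver and 2 livers leave no residual degrees of freedom. Lung against liver called 1 member at an adjusted p below 0.05 and 0 to 2 with a library left out. Heart against liver called 4 members at an adjusted p below 0.05, 0 with 20 reads, 0 with edgeR and 0 to 3 with a library left out. With horse as a replicate block heart against liver called 0 members and lung against liver 0, and no CpG at all was called in either. Leaving out the largest cluster kept each share close to the main value, at 73.9% for nearness and 97.7% for direction. Of 40 spans of named regions under other weights or 1 strand, 37 moved by less than the heart-lung spread. With 1 horse left out 48 of 80 did, and the span fell to 4.12 points at chr17:78288834 without horse 2 and to 4.35 points at chr11:45550756 without horse 1. Depth limits single values, at a median of 15 reads in liver of horse 2.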
